A study of Mus musculus with 2 samples.

Results

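The 9 genes described here are Myc and 8 genes for amino acid transport, taken by gene symbol from the 54532 gene rows of a count table. They are the light chain genes Slc7a5 and Slc7a6 with their heavy chain Slc3a2, the arginine transporter gene Slc7a1, and the neutral amino acid transporter genes Slc1a5, Slc1a4, Slc38a1 and Slc38a2. Each symbol had 1 row. The table came from RNA sequencing of CD4-positive effector T cells of the BDC-2.5 line, whose transgenic T cell receptor recognises an antigen of pancreatic beta cells. Activated cells of this line were given to NOD.scid mice, immunodeficient non-obese diabetic mice without their own mature T and B cells, in both groups. In the group named 2.5HIP-PLG, called treated here, the recipients received 1.75 mg of 2.5HIP-PLG nanoparticles by vein 1 day later, that is, polymer particles with a hybrid insulin peptide, and the other group is labelled Untreated. The injection also appears in the protocol entry of the untreated sample, so the groups rest on the title, the treatment label and the description, which names control mice. On day 6 after transfer, spleen and lymph node cells negative for the Foxp3 reporter were sorted, with 4 mice pooled for the 1 library of each group. The age of the mice is not given in the labels.

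T cells that are activated must double their mass before they divide, and amino acids taken up from outside supply that growth. Myc is the transcription factor that turns on the genes for this growth, among them genes of transport and ribosome building, and Myc protein in turn depends on amino acid supply because it is made and degraded quickly. Several of the carriers are exchangers. Slc7a5 (LAT1) brings in leucine and other large neutral amino acids in exchange for glutamine, and it reaches the membrane only when joined to Slc3a2, the CD98 heavy chain. Leucine and arginine inside the cell are sensed by the kinase complex mTORC1, which promotes protein synthesis.

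The treated library held 22580648 counts and the untreated library 26036623, and levels are given as counts scaled to a total of 1000000 (CPM). One count was worth 0.0443 and 0.0384 CPM. Each ratio is the CPM of the treated library over that of the untreated library, with its exact 95% interval, in which counting error is the sole error. A gene counted as higher when the ratio was at least 1.5 and as lower when it was at most 0.667, in each case with an interval that did not include 1. No p-value is given, since a group of 1 library shows nothing of the spread between mice or preparations, and the calls are statements on these libraries alone. Mitochondrially encoded genes took 2.75% and 2.29% of counts, and a ribosomal RNA gene class took 0.202% and 1.06%.

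The sorted cells had the T cell genes their label calls for. The 10 CD4 T cell markers examined (Cd3e, Cd3d, Cd3g, Cd4, Trac, Cd28, Cd5, Lck, Trbc1 and Trbc2) summed to 8742 CPM in the treated library and 7108 CPM in the untreated library, and 0 of them were called. The markers of 10 other cell types were far scarcer. B cell markers summed to 188 and 117 CPM (2 of 7 higher), with Ms4a1 at 0 in both libraries, the only marker so. Most of the B cell marker counts were those of Ighm (3761 and 2641, higher). Stromal markers summed to 130 and 101 CPM (2 of 5 higher), mostly from Pecam1 (2850 and 2573 counts, not called). NK cell markers summed to 48.8 and 31.6 CPM (2 of 5 higher and 2 lower). Eomes (735 and 360 counts, higher) gave most of that sum, while Ncr1 (54 and 96) and Klrb1c (21 and 52) were lower. These sums therefore mostly reflect single genes and do not measure the cell types. Dendritic cell markers summed to 67.8 and 94.8 CPM (1 of 7 lower), erythroid markers to 49.6 and 47.5 (1 of 4 higher), and macrophage markers to 22.1 and 20.5 (2 of 7 higher). CD8 markers summed to 13.5 and 10.8 CPM and platelet markers to 1.51 and 1.38, with 0 called in each. Neutrophil markers (13.6 and 3.69 CPM, 2 of 6 higher) and mast cell and basophil markers (17.0 and 3.76 CPM, 3 of 5 higher) had the largest ratios of these sums. The neutrophil sum came mostly from Mpo (237 and 57 counts), which was higher, as was Elane (31 and 9). Ngp (16 and 8) was not called, and S100a8 (10 and 8), S100a9 (10 and 9) and Ltf (4 and 5) had too few counts. The part of these other cell types in the results below was not tested. In pooled cells fewer cells of a type and less RNA per cell cannot be told apart.

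All 9 genes were measured, that is, their counts in the 2 libraries summed to at least 20. One of them, Slc1a4, was called higher and 0 were called lower. Among 13902 measured genes 5.15% were called higher and 9.70% lower, so 1 of 9 is near the background. Of the 8 genes with a count sum of at least 1000, 0 were called, where 2.71% of all such genes were called higher and 2.86% lower. The median log2 ratio of the 9 genes was 0.05, against -0.01 over all measured genes. Beneath the call rule the genes fell into 3 kinds. Myc and Slc38a2 were 25.9% and 25.8% lower in the treated library with intervals well below 1, the other 6 abundant transporter genes had ratios from 0.999 to 1.09, and Slc1a4 was higher on few counts.

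**Figure D1:**
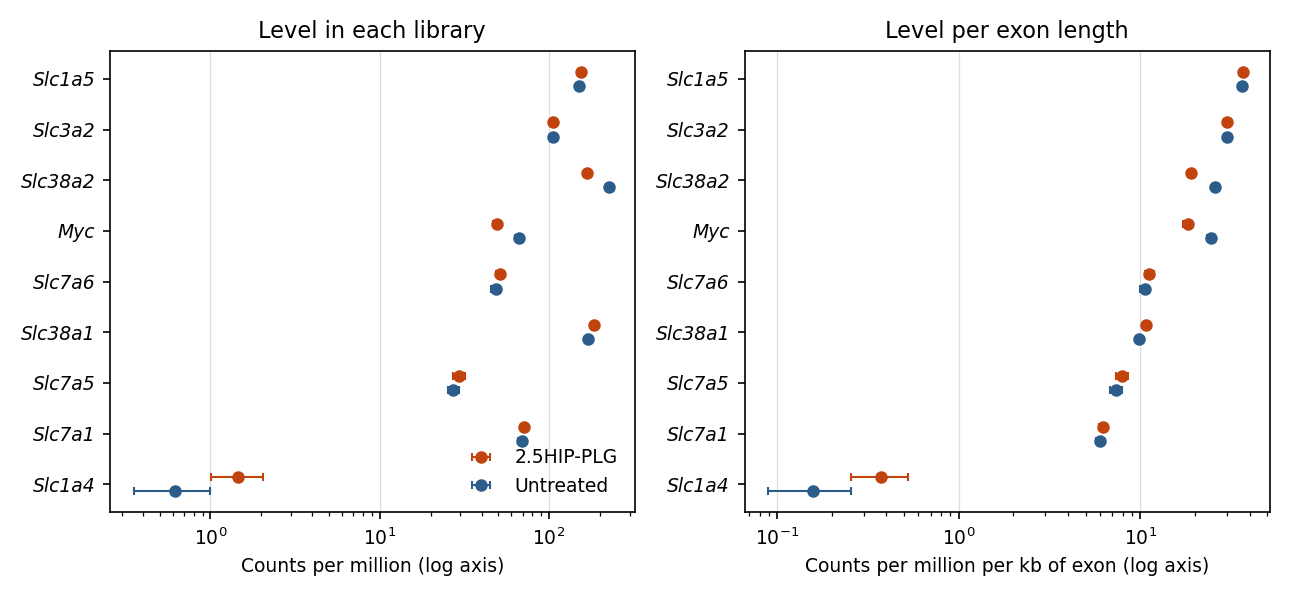
Level of each gene in the treated library (2.5HIP-PLG, orange) and the untreated library (blue), in CPM (left) and in CPM per kb of merged exons (right), both on log axes with exact 95% Poisson intervals for counting error. The points of the libraries lie apart for Slc38a2 (169 and 228 CPM), Myc (49.4 and 66.6 CPM) and Slc1a4 (1.46 and 0.615 CPM), and nearly coincide for Slc3a2.

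Myc itself, on chromosome 15 (61985391 to 61990374, plus strand, GRCm38), had 1115 counts in the treated library against 1734 in the untreated one. These are 49.4 and 66.6 CPM, a difference of -17.2 CPM. The 2.5HIP-PLG library was the lower one, with a ratio of 0.741 (0.687 to 0.800), or 1.35-fold lower. The whole interval lay below 1 and above 0.667, so the gene was not called. Of the 7022 genes with a count sum of at least 1000, 5.53% had a lower ratio than Myc. An interval below 1 at any size was common at this depth, being found in 28.8% of those abundant genes, so such an interval alone sets no gene apart.

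**Figure D2:**
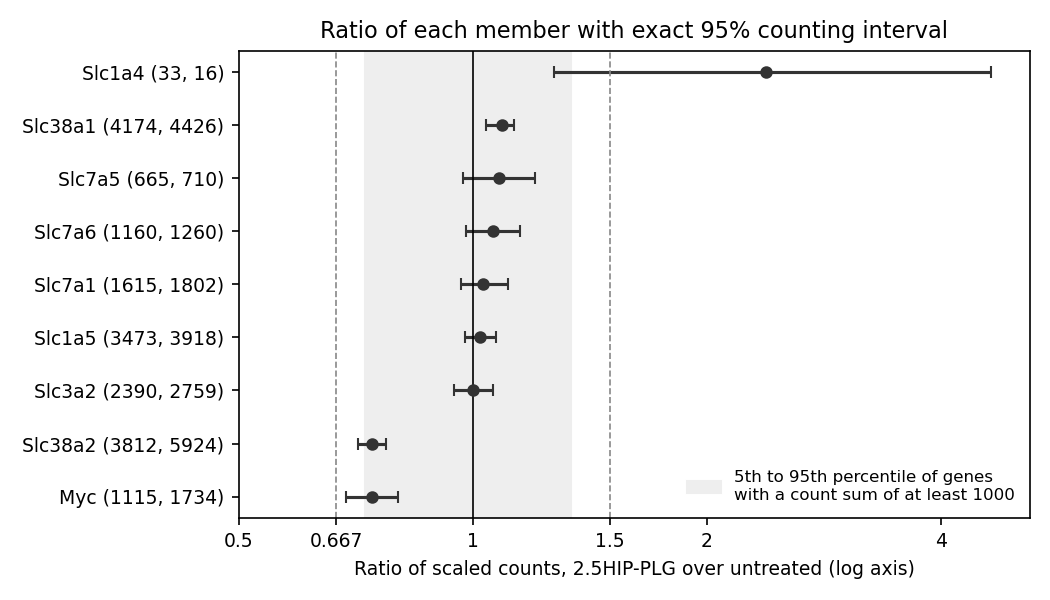
Ratio of scaled counts, 2.5HIP-PLG over untreated, for each of the 9 genes on a log axis, with the counts of the 2.5HIP-PLG and the untreated library in brackets and exact 95% counting intervals. Dashed lines mark the ratios of 1.5 and 0.667; Myc (0.741) and Slc38a2 (0.742) lie near the lower edge of the grey band of abundant genes, and Slc1a4 (2.38) lies above 1.5 with the widest interval.

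The genes of the CD98 complex were not called. Slc3a2, the glycoprotein chain that carries the light chains to the cell surface (chromosome 19, 8706882 to 8723369, minus strand), had 2390 and 2759 counts, which is 106 CPM in each library. Its ratio was 0.999 (0.945 to 1.06). Slc7a5, the leucine carrier LAT1 (chromosome 8, 121881150 to 121907694, minus strand), had 665 counts in the treated library against 710 in the untreated one, or 29.4 and 27.3 CPM. Its ratio was 1.08 (0.970 to 1.20). Slc7a6, the light chain of the exchanger y+LAT2, which trades basic for neutral amino acids (chromosome 8, 106168857 to 106198706, plus strand), had 1160 and 1260 counts, or 51.4 and 48.4 CPM. Its ratio was 1.06 (0.979 to 1.15). For these 3 genes a difference between the libraries was not detectable at this depth, and their counting intervals hold no ratio of 1.5 or more in either direction.

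The balance of light to heavy chain did not differ detectably between the libraries. Slc7a5 had 0.278 counts for each count of Slc3a2 in the treated library and 0.257 in the untreated library, and the odds ratio between the libraries, which does not depend on how they are scaled, was 1.08 (0.958 to 1.22). Per kb of merged exons, Slc7a5 stood at 0.265 and 0.245 of the level of Slc3a2. Slc7a6 had 0.485 and 0.457 counts for each count of Slc3a2, with an odds ratio of 1.06 (0.964 to 1.17). Per kb of exon the 2 light chains together therefore did not reach the level of the heavy chain in either library. Gm20388, a long gene model annotated on the opposite strand across Slc7a5 (chromosome 8, 119910841 to 124345722), was higher, with 664 and 352 counts (2.18, 1.91 to 2.48). It shared no exon bases with Slc7a5. The expected counts of Gm20388 were not whole (663.83 and 351.91), while those of Slc7a5 were whole in both libraries.

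Slc7a1, the transporter CAT1 for arginine and lysine (chromosome 5, 148327410 to 148399904, minus strand), had 1615 counts after 2.5HIP-PLG and 1802 without. These are 71.5 and 69.2 CPM, with a ratio of 1.03 (0.966 to 1.11). A difference was not detectable here either. Set against Slc7a5, its odds ratio was 0.957 (0.843 to 1.09), so Slc7a1 and Slc7a5 did not part detectably. Other leucine carriers were not part of this comparison.

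Slc1a5, or ASCT2, exchanges glutamine and other small neutral amino acids (chromosome 7, 16781340 to 16798274, plus strand). It had 3473 and 3918 counts, or 154 and 150.5 CPM, and a ratio of 1.02 (0.976 to 1.07). This glutamine carrier was the gene with the highest level per kb of exon of the 9, and it did not differ detectably. Its relative Slc1a4, or ASCT1, which moves alanine, serine, cysteine and threonine (chromosome 11, 20302180 to 20332713, minus strand), had 33 counts in the treated library against 16 in the untreated one. That is 1.46 against 0.615 CPM, a ratio of 2.38 (1.27 to 4.63), and 97.9% of measured genes had a lower ratio. Its level was near the bottom, since 12.0% of measured genes had a smaller count sum, and with a count minimum of 100 the gene is not measured at all. Slc1a5 had 105 counts for each count of Slc1a4 in the treated library and 245 in the untreated library, an odds ratio of 0.430 (0.221 to 0.805). The scarcity of Slc1a4 means that this shift concerns a small share of transporter counts, 0.191% and 0.0769% of those of the 8 transporter genes.

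The 2 genes of the SLC38 family parted. Slc38a1 and Slc38a2 encode SNAT1 and SNAT2, which bring in glutamine and other small neutral amino acids together with sodium, and SNAT2 is known for its induction when amino acids run short. They lie next to each other on chromosome 15 on the minus strand (96571418 to 96642913 and 96687392 to 96699730), 44.5 kb apart. Slc38a2 had 3812 counts in the treated library against 5924 in the untreated one, or 169 and 228 CPM. The 2.5HIP-PLG library was lower by 58.7 CPM, with a ratio of 0.742 (0.712 to 0.773), that is 1.35-fold lower, and was not called. Of the abundant genes 5.54% had a lower ratio. Slc38a1 had 4174 and 4426 counts, or 185 and 170.0 CPM, and its ratio of 1.09 (1.04 to 1.13) lay on the other side of 1. An interval above 1 at any size was found in 34.5% of abundant genes. The odds ratio of Slc38a1 to Slc38a2 was 1.47 (1.38 to 1.55): in the untreated library Slc38a1 had 0.747 counts for each count of Slc38a2, and in the treated library 1.09. The expected count of Slc38a1 was not whole in the treated library (4173.78), while the other 8 genes had whole counts in both.

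**Figure D3:**
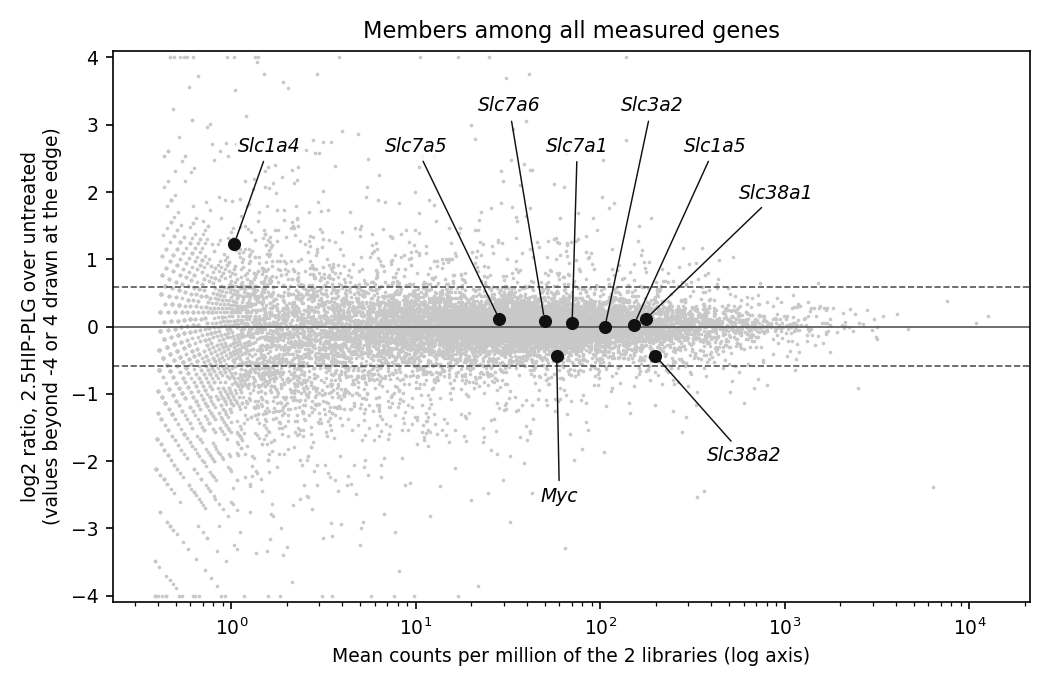
Log2 ratio, 2.5HIP-PLG over untreated, against mean level in CPM (log axis) for the 13902 measured genes (grey) and the 9 genes (black, labelled), with dashed lines at 1.5-fold in either direction. Slc1a4 lies among scarce genes with a wide scatter of ratios, whereas Myc and Slc38a2, both at -0.43, lie at the lower edge of a narrow band.

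The counts of the 8 transporter genes together were 17322 in the treated library and 20815 in the untreated library, or 767 and 799 CPM (ratio 0.960, 0.940 to 0.979). Slc38a2 decided the direction of this sum. Without it the other 7 genes had 598 and 572 CPM (ratio 1.05, 1.02 to 1.07). Slc38a2 supplied 28.5% of the transporter counts in the untreated library, the largest share there, and 22.0% in the treated library, where Slc38a1 led with 24.1%.

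Levels of different genes were compared per kb of merged exons. In the untreated library the order was Slc1a5 (36.1 CPM per kb), Slc3a2 (30.0), Slc38a2 (25.7), Myc (24.5), Slc7a6 (10.6), Slc38a1 (9.86), Slc7a5 (7.35), Slc7a1 (6.00) and Slc1a4 (0.157). The same order held in the treated library, with Slc1a5 at 36.9 CPM per kb, Slc3a2 at 30.0, Slc38a2 at 19.1 and Myc at 18.2. In both libraries the counting intervals of the neighbours Slc38a2 and Myc overlapped, as did those of Slc7a6 and Slc38a1, so these neighbours cannot be ranked. The order also depends on the length used. Per kb of the longest annotated transcript Slc38a1 stood at 23.4 CPM in the untreated library and 25.4 in the treated library, above Slc7a6 in both and above Myc (21.1) in the treated library.

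Promoter and transcript sequences were searched for motifs, and the promoter sequences of Slc38a2 and Slc1a4, the transporter genes with the largest differences, are printed. RefSeq promoter windows (GRCm38.p6, 250 bases before to 50 after a start) matched 5 of the 9 genes, Slc7a6, Slc3a2, Slc7a1, Slc1a4 and Slc38a2, with 7 windows in all, alternative starts included. The only start used for Slc3a2 lay 9472 bases from its annotated gene start, so the promoter at that gene start was not searched. For Slc7a1, 1 window lay at the annotated gene start and 1 used a start 7089 bases away. The E-box CACGTG, a palindrome that Myc with its partner Max is known to bind, occurred in 0 of the 7 windows and in 7.17% of 32544 windows of the table. The core TGATGNAA of the amino acid response element, which Atf4 is known to bind, was searched on both strands and does not contain the E-box. It occurred in 1 of the 7, that of Slc1a4, and in 3.91% of all. The windows up to the start, in Slc1a4 up to the end of the match, are printed 5′ to 3′ on the gene's strand, with the match in capitals (as TTGCATCA, the core read on the other strand, from 4 bases before the start).
Slc1a4, chr11:20332710-20332963, minus strand: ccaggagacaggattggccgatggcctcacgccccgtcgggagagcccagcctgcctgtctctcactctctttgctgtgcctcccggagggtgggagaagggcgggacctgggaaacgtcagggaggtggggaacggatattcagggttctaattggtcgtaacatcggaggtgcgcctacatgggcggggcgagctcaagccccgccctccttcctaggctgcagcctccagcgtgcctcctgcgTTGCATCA
Slc38a2, chr15:96699729-96699978, minus strand: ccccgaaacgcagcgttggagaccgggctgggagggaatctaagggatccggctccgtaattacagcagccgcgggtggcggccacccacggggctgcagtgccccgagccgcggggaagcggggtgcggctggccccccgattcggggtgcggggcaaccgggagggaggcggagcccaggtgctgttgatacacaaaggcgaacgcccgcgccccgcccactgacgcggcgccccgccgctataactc
A match or its lack describes these letters only. The E-box and the response element core were not searched outside the windows, for example in introns further into a gene. No window was available for Myc, Slc7a5, Slc1a5 or Slc38a1. The lack of a match in the Slc38a2 window therefore does not show that the gene lacks the element.

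The 3′ untranslated regions were searched on the transcript strand for the AU-rich pentamer ATTTA and for the longer TATTTAT, which contains it. Such elements are known from unstable messages like that of Myc. ATTTA occurred 2 times in the 466 bases of Myc (4.29 per kb) and 5 times in the 2735 bases of Slc38a2 (1.83 per kb), against 1.80 per kb over 11713 measured genes. Slc7a5 and Slc1a5 had 0, and Slc7a6 had 5 (2.42 per kb), so Myc had the highest density of the 9 and Slc38a2 one near that of all genes. TATTTAT was present in 3 of the 9 genes, Slc7a6, Slc38a1 and Slc38a2, and in 29.8% of all. The neighbours Slc38a1 and Slc38a2, whose ratios differ, each had 2, printed from GENCODE M21 transcripts (GRCm38) with the heptamer in capitals.
Slc38a1, chr15:96576276-96576304, minus strand: tgaattgtataTATTTATtttgctttaca
Slc38a1, chr15:96574572-96574600, minus strand: tatttgcagcaTATTTATttgcaggaagc
Slc38a2, chr15:96687931-96687959, minus strand: aactgtactgtTATTTATagagcagcatt
Slc38a2, chr15:96687885-96687913, minus strand: ctatttttcaaTATTTATgataaactgta

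The wider pathways were read through lists of genes, and Myc's own network came first. Of 11 measured genes of that network 0 were called, where 5.15% of all measured genes were higher and 9.70% lower. All 11 had a count sum of at least 1000, and of such genes only 2.71% were called higher and 2.86% lower. The median of the log2 ratios of the network was 0.10. Max, the partner that Myc needs to bind DNA, had 3314 and 3060 counts (ratio 1.25, 1.19 to 1.31), and Mxd1, which competes with Myc for Max, had 1578 and 1576 (1.15, 1.08 to 1.24). Its relative Mxi1 had 521 and 756 counts (0.795, 0.709 to 0.890). Mlxip, the nutrient-responsive factor MondoA, had 3301 and 4893 (0.778, 0.744 to 0.813). Fbxw7, the ubiquitin ligase that marks Myc protein for degradation, had 930 and 1334 counts (0.804, 0.738 to 0.875). Mycn had 6 and 4 counts and Mycl 1 and 1, so nearly all counts of the Myc family were those of Myc.

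Of 30 nucleolar and growth genes, all measured, 0 were called, where 5.15% of all measured genes were higher and 9.70% lower. Most of the 30 had a count sum of at least 1000, and of such genes 2.71% were called higher and 2.86% lower. Of the 30, 12 had an interval above 1, beside 24.3% of all measured genes and 34.5% of those with such a count sum. Another 4 had an interval below 1, beside 26.3% and 28.8%. The median log2 ratio of the 30 was 0.09, against -0.01 over all measured genes. The highest was Nop2, a ribosomal RNA methyltransferase, with 859 and 759 counts (1.3, 1.18 to 1.44). Ldha, lactate dehydrogenase, had 18131 and 16511 (1.27, 1.24 to 1.29), and Nop58, a core protein of small nucleolar particles, 1588 and 1494 (1.23, 1.14 to 1.32). The lowest was Gnl3, nucleostemin, with 582 and 913 counts (0.735, 0.661 to 0.816), followed by Wdr12 of the ribosome assembly complex PeBoW with 412 and 605 (0.785, 0.691 to 0.891).

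**Figure D4:**
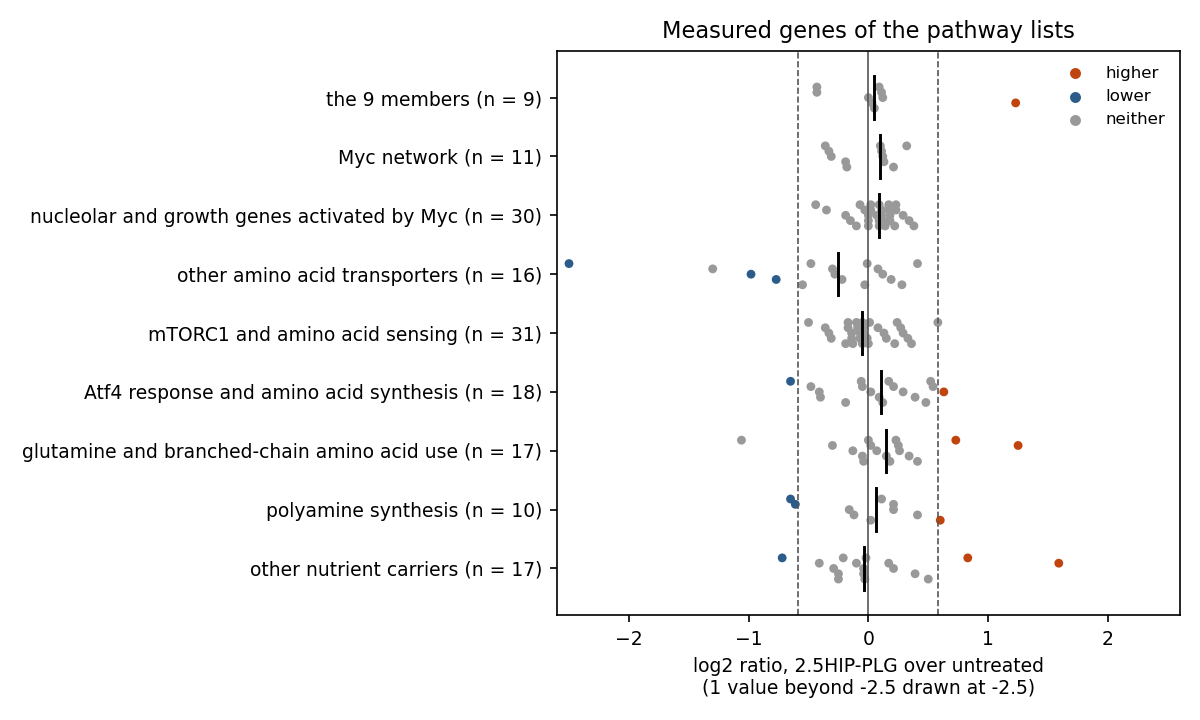
Log2 ratio of each measured gene in the set of 9 and in 8 pathway lists, with genes called higher in orange, lower in blue and neither in grey; black bars are medians and dashed lines mark 1.5-fold. The Myc network, the genes activated by Myc and the mTORC1 list hold 0 called genes, and the other amino acid transporters have the lowest median, at -0.25.

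Among other amino acid transporter genes, 3 of 16 measured were lower and 0 higher, beside a background of 9.70% lower. Their median log2 ratio was -0.25, also with Slc7a10 (below) at its bound. The count of 3 fell to 1 where genes needed a summed count of 100 or more, and to 1 where they needed a ratio of at least 2. It was 4 under upper quartile scaling. Slc16a10, the aromatic amino acid carrier TAT1, had 87 and 172 counts (1.71-fold lower, 1.32 to 2.25). Slc43a1, the leucine carrier LAT3, had 23 and 53 (2.0-fold lower, 1.20 to 3.42). Slc7a10, a light chain for alanine and serine exchange, had 0 and 21 counts, 6.07-fold lower taking 3 counts in place of the 0, and with the error of both counts its exact interval reached up to a ratio of 0.221. Slc38a9, the lysosomal arginine sensor that acts on mTORC1, had 409 and 689 counts (0.684, 0.604 to 0.775) and was not called. Slc3a1, the other heavy chain of the family, had 6 and 18 counts with expected counts that were not whole. Slc38a4, the next gene of the SLC38 cluster on chromosome 15, and the cystine carrier Slc7a11 were all but absent, with 0 and 0 counts and 0 and 1.

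Of 31 measured genes of mTORC1 and amino acid sensing 0 were called, where 5.15% of all measured genes were higher and 9.70% lower, and the median log2 ratio was -0.05. Most of the 31 had a count sum of at least 1000, and of such genes only 2.71% were called higher and 2.86% lower. Sesn1, whose relative Sesn2 is a leucine sensor, had 500 and 813 counts (0.709, 0.633 to 0.794). Sesn3, another sestrin, had 7253 and 6509 (1.28, 1.24 to 1.33). Mlst8, a subunit of the kinase complex, had 534 and 791 counts (0.778, 0.696 to 0.870), and Eif4e, which binds the messenger cap, 1715 and 1570 (1.26, 1.18 to 1.35). Rragb, a Rag GTPase that places mTORC1 at the lysosome, came nearest to a call with 153 and 118 counts and a log2 ratio of 0.58. With TMM or DESeq2 scaling that list held 1 higher gene.

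Of 18 measured genes of the Atf4 response and amino acid synthesis 1 was higher and 1 lower, near the background of 5.15% and 9.70%, and 0 were called with a ratio of at least 2. The log2 ratios had a median of 0.11. Asns, asparagine synthetase, had 149 and 111 counts (1.55, 1.20 to 2.0). Psat1 of serine synthesis had 1873 and 1510 (1.43, 1.34 to 1.53), and Mthfd1l of mitochondrial folate metabolism 1708 and 1355 (1.45, 1.35 to 1.56), both under the size rule. Ppp1r15a, the phosphatase subunit GADD34 that restores translation after stress, had 3191 and 5760 counts (1.57-fold lower, 1.5 to 1.64), and Cebpb had 304 and 489 (0.717, 0.619 to 0.829). Atf4 itself had 4223 and 5558 counts, a log2 ratio of -0.19.

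Of 17 measured genes of glutamine and branched-chain amino acid use 2 were higher and 0 lower, beside 5.15% and 9.70% of all measured genes, and the median was 0.15 on the log2 scale. Bcat1, the cytosolic transaminase of leucine, isoleucine and valine, had 359 and 249 counts (1.66, 1.41 to 1.96). Gpt2, the mitochondrial alanine transaminase, had 52 and 25 (2.40, 1.46 to 4.03). Ppat, which spends glutamine in purine synthesis, had 1155 and 1004 counts (1.33, 1.22 to 1.44), and Bckdhb of branched-chain breakdown 158 and 144 (1.27, 1.00 to 1.6). Gls2 had 8 and 20 with an interval that held 1. Of 10 measured polyamine genes 1 was higher and 2 lower (median 0.06), beside the same background. Azin1, which spares ornithine decarboxylase from degradation, had 3903 and 2961 counts (1.52, 1.45 to 1.59). Sms, spermine synthase, had 3180 and 2763 (1.33, 1.26 to 1.4), and Sat1, which acetylates polyamines, 1886 and 1875 (1.16, 1.09 to 1.24). The polyamine oxidases Smox, with 92 and 167 counts (1.57-fold lower, 1.21 to 2.05), and Paox, with 193 and 339 (1.52-fold lower, 1.27 to 1.83), were lower. The expected counts of Azin1, Sms, Sat1 and Paox were not whole. Odc1, the ornithine decarboxylase that Myc is known to activate, had a log2 ratio of 0.02.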

How the data were processed

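RNA was extracted with an RNeasy Plus kit and libraries were made with a NuGen mRNA kit, per the labels' protocols. Per the submitters' processing notes, STAR and RSEM 1.3.1 were used with GRCm38. No label names the STAR version, the gene models, any filter or the strand option. The values that the authors deposited are expected counts per gene, not scaled between libraries. They were rounded to whole numbers and scaled by column total, with intervals that are exact (Clopper-Pearson, conditional binomial) and pairs compared by a conditional odds ratio, in Python 3.11.15 with scipy 1.17.1. Intervals and floors cover counting error only, as reads were not tied to single molecules. Expected counts that were not whole are pointed out for some named genes only. Those of Mlxip, Mxi1, Ldha, Slc7a11, Mlst8, Eif4e, Cebpb, Ppat and Odc1 were not whole either, and 5098 of the 13902 measured genes had such counts. The calculation was tested on data simulated with counting error only. That test holds no spread between mice or preparations and says nothing of it.

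The genes, the 8 pathway lists and the tests were chosen with earlier results of these data known. Named from each list were the called genes and the 5 with the largest absolute log2 ratio (0.5 counts added). Atf4, Odc1, Mycn, Mycl, Slc38a4, Slc7a11, Sesn2 and the genes near Myc, Slc3a2, Slc7a5 and Slc7a6 were named outside this rule, after their values were seen. The motif searches were also chosen then. No gene was named for a like pattern, since 2 libraries give 1 ratio per gene. Slc66a1 had no row under that symbol. Odc1 and Srm stand in 2 lists, as does Slc19a1. Positions, exon lengths and untranslated regions came from GENCODE M21 on GRCm38, which holds 54409 of the row IDs. Alternatives were other scalings (edgeR 4.0.16 TMM and upper quartile, DESeq2 1.42.0 size factors, totals without mitochondrial and ribosomal RNA genes), count minimums, a ratio of 2, a 99% interval and unrounded counts.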

Additional observations from a re-analysis of the deposited data

How the results depend on the processing

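The ratios of the 9 genes changed little with scaling: Myc ranged from 0.733 to 0.748, Slc38a2 from 0.734 to 0.748 and Slc3a2 from 0.988 to 1.01 over the 4 other scalings, which move every gene alike, by -0.016 to 0.012 on the log2 scale. With a count sum of at least 100, the number of these genes called higher dropped to 0, because Slc1a4 no longer qualified; no other setting changed it, and none called a gene of the 9 lower. At that minimum 473 of all genes were higher and 748 lower, against 716 and 1348 as reported. With a ratio of at least 2, 387 genes were higher and 808 lower, and the pathway lists held 2 higher and 1 lower gene in place of 6 and 7. No paired analysis was possible because each group has 1 library, and for the same reason no library could be left out. Depth limits Slc1a4 most: its 49 counts leave an interval from 1.27 to 4.63. Levels per kb moved with the length used, Slc38a1 in the untreated library from 9.86 to 23.4 CPM per kb.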

Other observations

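Of 17 measured carriers for other nutrients 2 were higher and 1 lower, beside 5.15% and 9.70% of all measured genes, and the log2 ratios had a median of -0.04. Slc16a3, the lactate exporter MCT4, had 744 and 285 counts (3.01, 2.62 to 3.46). Slc29a1, the nucleoside carrier ENT1, had 1569 and 1019 (1.78, 1.64 to 1.92). The phosphate carrier gene Slc20a1 had 3504 and 6672 counts (1.65-fold lower, 1.58 to 1.72). The expected counts of Slc29a1 and Slc20a1 were not whole. Tfrc, the transferrin receptor that shares with Slc3a2 a high level in dividing lymphocytes, had 1248 and 1014 counts (1.42, 1.31 to 1.54) and was not called. Slc11a2, the iron carrier DMT1, had 479 and 732 (0.755, 0.671 to 0.848).

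Genes beside the 9 were read after their values were seen. Pvt1, the long non-coding gene beside Myc, had 159 and 252 counts, a ratio of 0.728 (0.593 to 0.891) beside 0.741 for Myc. Snhg1, whose start faces that of Slc3a2 on chromosome 19, had 767 and 1140 counts (0.776, 0.707 to 0.851), beside 0.999 for Slc3a2. Slc7a6os, annotated beside Slc7a6, had 880 and 1012 counts (1.00, 0.915 to 1.10), beside 1.06 for Slc7a6. Gm20388, the gene model across Slc7a5, was higher (2.18, 1.91 to 2.48).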
